A study of Mus musculus with 5 samples.

Results

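The lysosome gene module described here comprised 32 of the 28693 genes in the count matrices. It held 7 genes of the lysosomal membrane (*Lamp1*, *Lamp2*, *Laptm5*, *Scarb2*, *Mcoln1*, *Npc1*, *Cln3*) and 10 hydrolases of the lumen (*Gaa*, *Gusb*, *Hexa*, *Glb1*, *Neu1*, *Man2b1*, *Lipa*, *Asah1*, *Tpp1*, *Ppt1*). It also held 4 activators and luminal proteins (*Psap*, *Gm2a*, *Npc2*, *Grn*), 8 genes of the vacuolar proton pump (*Atp6v0d1*, *Atp6v0d2*, *Atp6v0c*, *Atp6v1a*, *Atp6v1b2*, *Atp6v1c1*, *Atp6v1h*, *Atp6ap1*) and the 3 transcription factors *Tfeb*, *Tfe3* and *Mitf*. The members were chosen by their function and not by a contrast of these data, although earlier results of these data were known. All 32 were detected, and together they took 1.43% of the unique molecular identifiers (UMIs) of the cells kept.

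The samples were 5 droplet scRNA-seq libraries of immune cells from lungs of *Ms4a3-CreER;R26-tdT* mice on a C57BL6/129 mixed background. In this line tamoxifen-inducible Cre is driven from *Ms4a3*, a gene of granulocyte and monocyte progenitors, and labels their progeny with tdTomato, and the PBS controls carried the same alleles. In 1 library the adult mice had received PBS, and in the other 4 bleomycin, which injures the lung when given into the trachea, with lungs taken on day 3, day 7, day 14 or day 28. With 1 library per time point, time and library cannot be told apart, no test was made between time points, and the number of animals behind a library was not given in the sources used here.

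Lysosomes are the acidic compartment in which macrophages break down engulfed cells, surfactant lipid and matrix. A proton pump, the V-ATPase, consists of a membrane part (V0) and a cytosolic ATPase part (V1) and acidifies the lumen, where hydrolases cut proteins, sugars and lipids with the help of activator proteins. TFEB, TFE3 and MITF bind a palindromic site found before many lysosomal genes, and alveolar macrophages (AMs) clear surfactant through this compartment throughout life.

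Promoter sequences from RefSeq (GRCm38.p6, 250 bases before to 50 bases after each start) were matched for 26 of the 32 members, with 35 windows in all. No window was matched for *Atp6v1c1*, *Atp6v1b2*, *Npc1*, *Asah1*, *Atp6v1h* and *Atp6v0d2*. The core of the palindromic site, CACGTG, which reads the same on both strands, stood in the windows of 7 members (*Cln3*, *Mcoln1*, *Lamp1*, *Atp6v0d1*, *Glb1*, *Gaa* and *Atp6v1a*), or 20% of the windows against 7.15% of all 32851 windows. The longer form TCACGTGA, which contains the core, stood in 11.4% of the member windows against 0.974% of all windows. The full form, which adds a G before and a C after the longer one, stood in 1 member window, that of *Cln3*, against 0.326% of all windows. A match is a description of the letters and was not tested for binding. The windows with the longer forms are shown because they carry the site that names this gene network, with the longest match in capitals, each read 5′ to 3′ on the strand of its gene.
Cln3 (chr7:126583341-126583368, minus strand): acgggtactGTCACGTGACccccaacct
Mcoln1 (chr8:3500463-3500490, plus strand): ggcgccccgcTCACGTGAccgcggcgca
Atp6v0d1 (chr8:105566051-105566078, minus strand): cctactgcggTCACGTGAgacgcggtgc
Atp6v1a (chr16:44139374-44139401, minus strand): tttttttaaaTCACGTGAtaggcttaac

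After the limits on genes, UMIs and mitochondrial share that the study also used, 44772 of 52800 barcodes were kept (7757 to 10280 per library), and the median depth ranged from 9260 UMIs per cell at day 3 to 14254 at day 14. The day 7 matrix held exactly 10000 barcodes and none under 4624 UMIs, whereas the lowest barcodes of the others had 500 to 502, and 85 neutrophils were found at day 7 against 1052 in PBS. Cells were assigned to classes by 2 or more UMIs of fixed marker genes, namely AMs from *Siglecf*, *Car4*, *Chil3* and *Krt79* and interstitial macrophages (IMs) from *C1qa*, *C1qb* and *C1qc*. Genes kept for checking the classes were highest in their own class in 37 of 49 cases. The library pairs shared 16 to 31 barcodes. RNA of AMs was visible in T cells, which should lack the AM genes *Ear1*, *Mrc1*, *Plet1*, *Cidec* and *Fabp4*. Whether it was RNA free in the droplets or came from doublets was not tested. T cells held them at a median of 3.49% of the AM level (0.291% to 15% over genes and libraries, and up to 45.2% in B cells). The highest values in both classes were those of *Fabp4*, whose mean level was higher in nonclassical monocytes than in AMs. The other genes reached at most 6.83% in T cells and 7.39% in B cells (both *Mrc1*). AMs numbered 5512, 640, 1452, 1189 and 2431 cells in the PBS, day 3, day 7, day 14 and day 28 libraries, and this order holds for every series of 5 values below. IMs numbered 44, 663, 2115, 1740 and 2162 cells.

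To give a level, the UMIs of all cells of 1 class and 1 library were added up and the sum for a gene was expressed per 1000000 UMIs (CPM). The method counts 1 end tag per captured molecule and is not scaled by gene length, so levels were compared between classes and libraries and not between genes. A level is a share of the RNA of a class, which says nothing of the RNA per cell.

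The module was highest in macrophages. The summed level of the 32 members averaged 16797 CPM in AMs (13755 to 21170 over 5 libraries) and 16587 CPM in IMs (12556 to 20249), so these classes overlapped. Nonclassical monocytes (4 libraries) ranged from 10339 to 18169 CPM, which overlapped both macrophage classes. Classical monocytes (3 libraries) ranged from 8666 to 13682 CPM, which overlapped IMs and stayed below AMs. Plasmacytoid dendritic cells (pDCs; 2 libraries) ranged from 10370 to 11941 CPM, below both macrophage classes. The high nonclassical values came from 38 cells at day 14 and 24 at day 28, in which the AM genes *Ear1* and *Plet1* reached up to 36.7% and 16.9% of the AM level, and the PBS and day 3 libraries gave 10339 and 10812 CPM. The means over libraries of T cells, B cells and NK cells lay between 3034 and 3293 CPM, and single libraries varied more than these means. Of the members, 13 had their highest mean level in AMs and 9 in IMs, where each class mean is over its own libraries, and for most of them the ranges of the highest and the next class overlapped. The ranges of the leading classes stayed apart for 3 members, *Atp6v0d1* (AMs), *Hexa* (IMs) and *Ppt1* (conventional dendritic cells of type 1, cDC1s).

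The other 10 members had their highest mean outside AMs and IMs. *Ppt1*, the thioesterase that removes palmitate from proteins, averaged 776 CPM in cDC1s (595, 654, 1053 and 801 CPM in the PBS, day 7, day 14 and day 28 libraries) and 240 CPM in neutrophils, the next class. *Gm2a*, the activator that presents GM2 ganglioside to its hydrolase, was highest in conventional dendritic cells of type 2 (cDC2s) at 1096 CPM and cDC1s at 1085 CPM. *Npc1*, which exports cholesterol from the lysosome, averaged 242 CPM in pDCs (days 3 and 7), and AMs averaged 148 CPM in the same 2 libraries. *Grn*, the precursor of the granulins, averaged 1769 CPM in pDCs, but 1816 CPM in IMs of the same libraries, so its order depended on the libraries averaged. *Npc2*, the luminal partner of *Npc1*, was highest in epithelial cells at 2136 CPM (1480 to 2573 CPM at days 7, 14 and 28). Classical monocytes ranged from 995 to 2713 CPM in the PBS, day 3 and day 7 libraries, so these ranges overlapped. *Gaa*, the acid glucosidase, was highest in fibroblasts at 117 CPM. The partners *Npc1* and *Npc2* thus had their highest mean levels in different classes, with each mean over the libraries of its class.

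**Figure D1:**
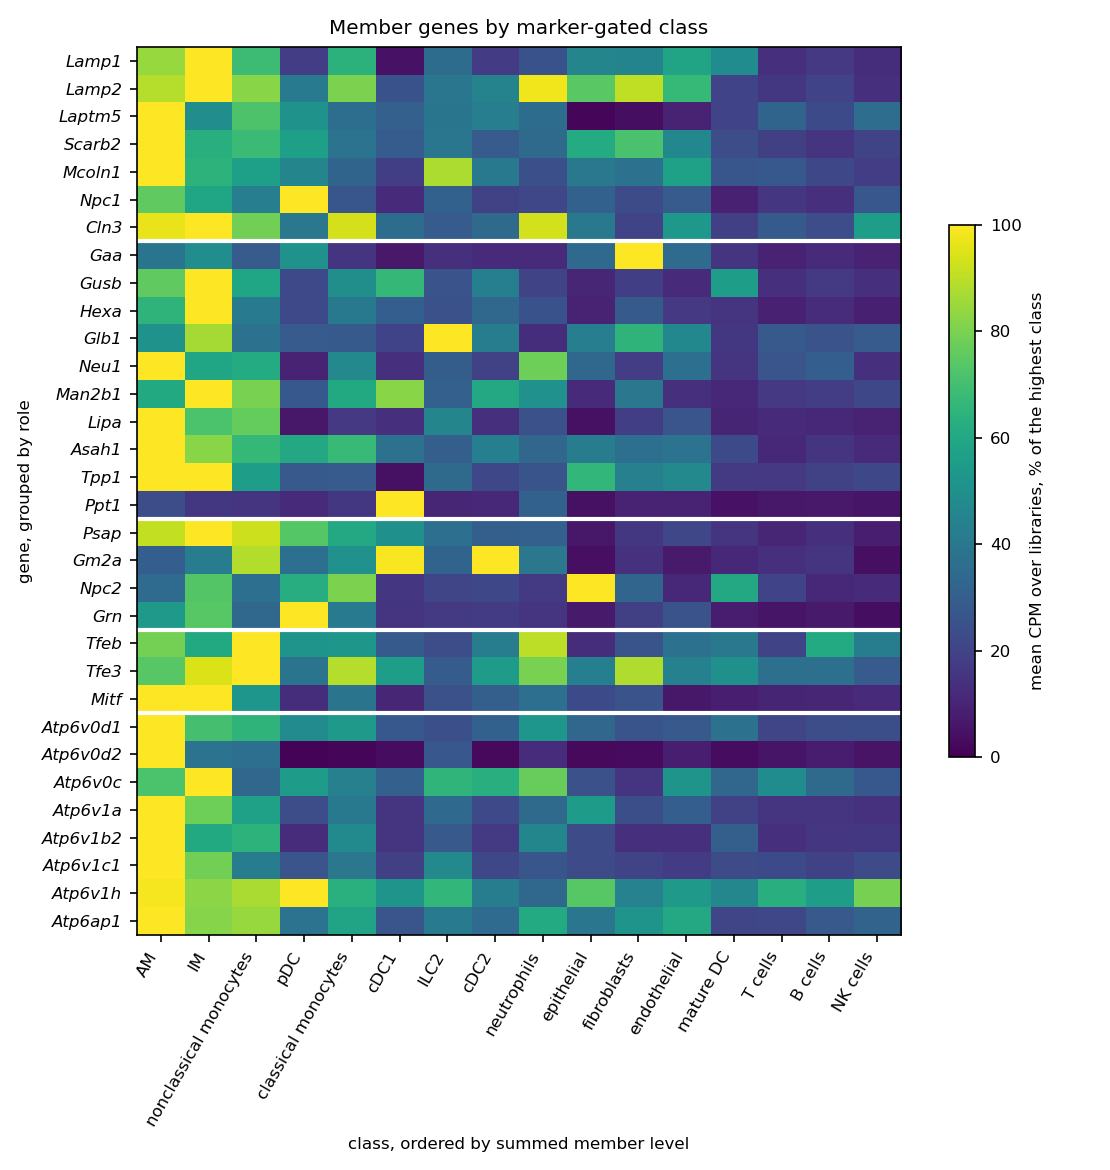
Mean level of each member in 16 marker-gated classes, as a percentage of the class in which that gene is highest. Rows are the 32 genes grouped by role, columns are ordered by the summed member level, and means are over the libraries with at least 20 cells of a class. The AM column is brightest over most proton pump genes, whereas *Ppt1* stands out in cDC1s and *Gm2a* in cDC1s and cDC2s.

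*Atp6v0c*, the proteolipid of the proton ring, stood apart from the other members by its low level, which ranged from 1.62 to 4.68 CPM in IMs and averaged less in every other class. The annotation (GENCODE M21) lists 2 processed pseudogenes, Atp6v0c-ps1 and Atp6v0c-ps2, and reads that fit several copies may have been left out by the authors' counting, so the values of this gene are uncertain.

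The difference between AMs and T cells, a class with little lysosome, served as a frame for the size of the effects. Of the 32 members, 31 were higher in AMs than in T cells (edgeR quasi-likelihood test on summed UMIs with library as a block, Benjamini–Hochberg adjusted p under 0.05, 5 libraries), against 35.4% of all genes tested that were higher. None was called lower by edgeR or by DESeq2 or at an unadjusted p under 0.05, whereas 34% of all genes were lower. The median difference of the members was 2.20 on the log2 scale, against 0.00 for all genes. *Atp6v0d2*, the V0 subunit d2 of macrophages and osteoclasts, lay between 798 and 1033 CPM in AMs and between 4.78 and 119 CPM in T cells and differed most, by 4.51 ± 0.60 on the log2 scale (SE, adjusted p = 0.00035). *Mitf* was at 43.2, 54.6, 55.7, 75.9 and 45.3 CPM in AMs and 2.58, 2.34, 6.87, 8.95 and 7.75 CPM in T cells (3.32 ± 0.28). *Grn* was at 642, 1085, 921, 963 and 1136 CPM against 46.4, 81.7, 145, 99.1 and 136 CPM (3.26 ± 0.18). AMs and T cells did not overlap for any of these genes. *Npc2* was closer between the classes, with a difference of 0.76 ± 0.15, and *Atp6v0c* (0.60 ± 0.28) was the member not called.

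Against cDC2s, 26 members were higher in AMs and 1 was lower (4 libraries), with 22.7% of all genes higher and 18.5% lower. *Atp6v0d2* reached 945, 834, 939 and 1033 CPM in AMs and 23.4, 10.7, 21.2 and 34.7 CPM in cDC2s in the PBS, day 7, day 14 and day 28 libraries. The levels did not overlap, and the log2 difference was 5.46 ± 0.24 (adjusted p = 1.6e-07). *Lipa*, the acid lipase that frees cholesterol and fatty acids from esters, was at 464, 507, 786 and 650 CPM in AMs and 66.4, 47.6, 93.7 and 98.4 CPM in cDC2s (2.89 ± 0.17), and *Atp6v1b2*, a B subunit of V1, was at 420, 341, 358 and 443 CPM against 69.0, 53.2, 55.6 and 86.8 CPM (2.45 ± 0.15). *Gm2a* was the member that went the other way, with 172 to 481 CPM in AMs and 828 to 1251 CPM in cDC2s (log2 difference -1.85 ± 0.26, adjusted p = 0.00021).

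Between AMs and IMs some members were called in each direction and others were not called. Of the members, 6 were higher in AMs and 10 were higher in IMs (5 libraries), against 19.1% and 18.8% of all genes tested, and 10 of these 16 calls were kept in each of the 5 fits that left out 1 library. The median difference of the members was 0.01 on the log2 scale and that of all genes 0.00. The share of members higher in AMs was thus close to that of all genes. By role, 3 of the 4 activators and luminal proteins (*Npc2*, *Gm2a* and *Grn*) and 4 of 10 hydrolases (*Glb1*, *Man2b1*, *Hexa* and *Gusb*) were higher in IMs. In AMs, 2 of 7 membrane genes (*Laptm5*, *Scarb2*), 2 hydrolases (*Neu1*, *Ppt1*) and 2 of 8 proton pump genes (*Atp6v0d1*, *Atp6v1b2*) were higher.

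*Npc2*, which takes cholesterol from the lumen to *Npc1*, had 584, 1049, 711, 690 and 719 CPM in AMs and 1016, 2408, 1415, 1458 and 1527 CPM in IMs. It was lower in AMs in 5 of 5 libraries, with a log2 difference of -1.17 ± 0.11 (adjusted p = 0.00040). *Glb1*, the acid β-galactosidase, had 29.0, 20.7, 35.0, 29.8 and 37.4 CPM in AMs against 64.9, 31.1, 54.4, 50.8 and 56.0 CPM in IMs (log2 difference -0.87 ± 0.11, adjusted p = 0.0011). *Man2b1*, the acid α-mannosidase, was at 152, 200.5, 206, 251 and 237 CPM in AMs and 318, 172, 255, 433 and 541 CPM in IMs (-0.76 ± 0.23). It was lower in AMs in 4 of 5 libraries, day 3 being the exception, and the call was lost without the PBS, day 7, day 14 or day 28 library. *Hexa*, a subunit of the hexosaminidase, was at 475, 380, 388, 440 and 429 CPM in AMs and 560, 609, 628, 729 and 730 CPM in IMs (-0.76 ± 0.12, adjusted p = 0.0030), without overlap. The calls of *Gm2a*, *Grn*, *Lamp1*, *Ppt1* and *Atp6v0c* were also lost in at least 1 of these fits.

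In the other direction, *Laptm5*, a lysosomal membrane protein of blood cells, had 2073, 2814, 2514, 2415 and 2769 CPM in AMs and 1255, 1183, 1124, 1280 and 1337 CPM in IMs. The groups did not overlap, and the log2 difference was 0.89 ± 0.13 (adjusted p = 0.0022). *Neu1*, the sialidase, was at 159, 175, 140, 162 and 166 CPM against 99.0, 121, 79.6, 94.6 and 76.2 CPM (0.65 ± 0.09). *Atp6v1b2* was at 420, 381, 341, 358 and 443 CPM against 198, 257, 200.5, 221 and 301 CPM (0.59 ± 0.11). Neither overlapped between the classes. *Atp6v0d1*, the widely expressed d subunit, was higher in AMs by 0.37 ± 0.08, and *Tfe3* was lower in AMs (-0.44 ± 0.10), whereas *Tfeb* (0.19 ± 0.14) and *Mitf* (-0.11 ± 0.20) did not pass the threshold. Among the members called, 7 had ranges that did not overlap between the classes.

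**Figure D2:**
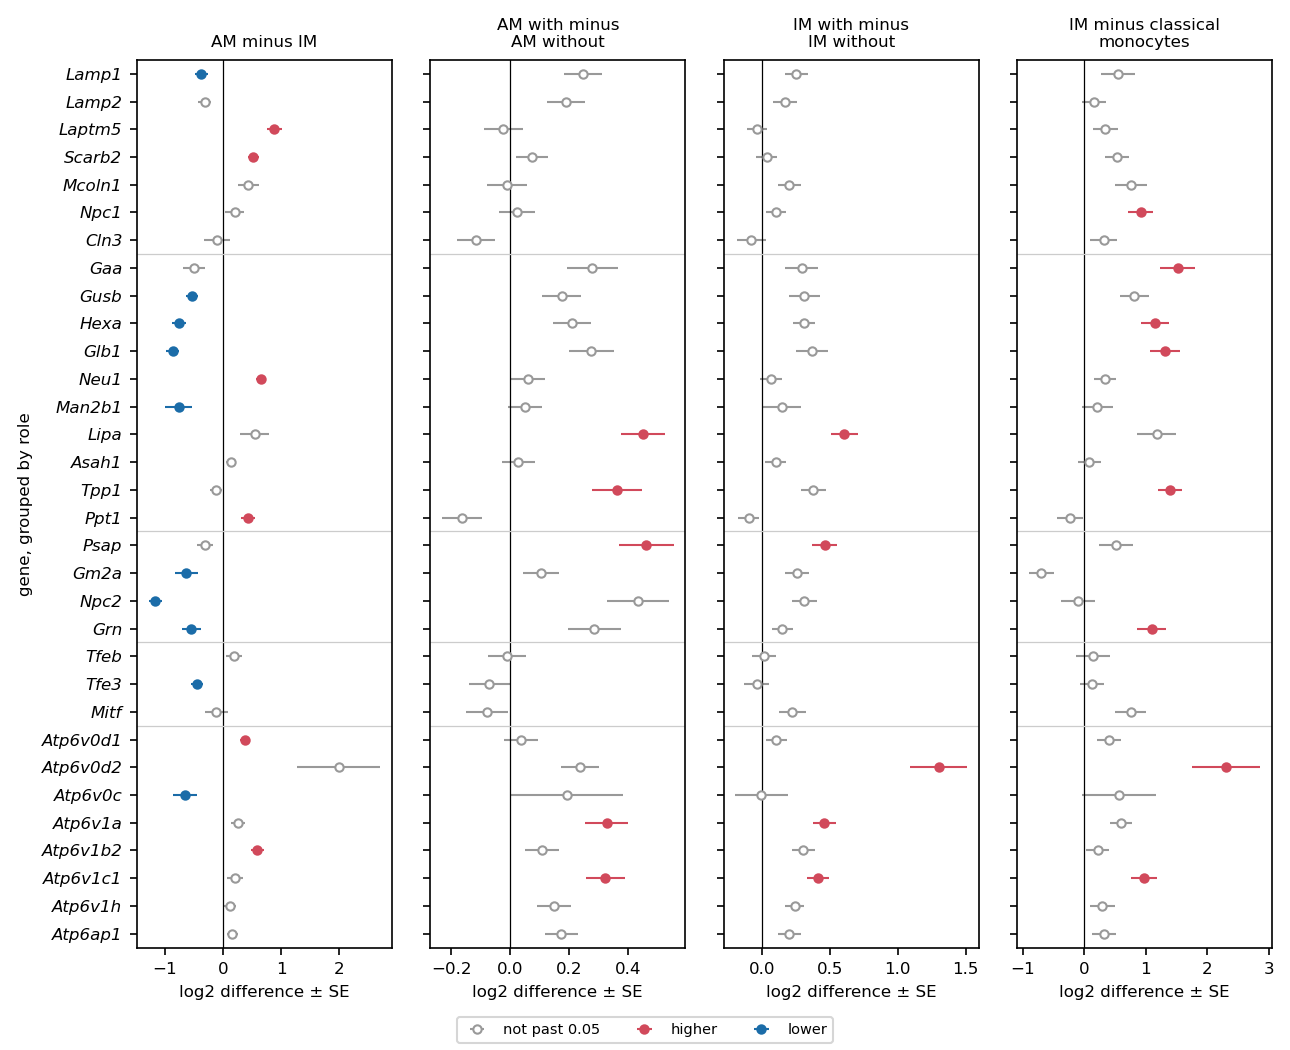
Log2 differences (points) with standard errors (bars) of the 32 members in 4 comparisons between classes, each fitted on summed UMIs with library as a block, with filled points past an adjusted p of 0.05. Members fall on both sides of 0 between AMs and IMs, whereas the members called between macrophages with and without *Mmp12*, *Gpnmb* and *Mfge8* all lie above 0.

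The proportion of the d subunits of V0 varied little over the libraries in AMs and spanned a wide range in IMs. *Atp6v0d1* (ENSMUSG00000013160, chr8:105524465-105566047, minus strand, GRCm38) and *Atp6v0d2* (ENSMUSG00000028238, chr4:19876841-19922605, minus strand) encode alternative d subunits. *Atp6v0d2* stood at 945, 798, 834, 939 and 1033 CPM in AMs, which was within 1.5-fold of the PBS library at every time. In IMs it stood at 172, 23.9, 141, 541 and 857 CPM, lowest at day 3 and highest at day 28. *Atp6v0d1* was at 255, 282, 263, 244 and 294 CPM in AMs and 188, 216, 188, 169 and 181 CPM in IMs, which was within 1.5-fold of PBS in both.

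As a share of the UMIs of both genes, *Atp6v0d2* made up 78.7%, 73.9%, 76.1%, 79.3% and 77.8% in AMs. The share in IMs was 47.7% (exact 95% binomial interval 41.0% to 54.5%), 9.95% (8.73% to 11.3%), 42.8% (41.9% to 43.7%), 76.2% (75.7% to 76.7%) and 82.5% (82.2% to 82.9%). The share in IMs was therefore far below that in AMs at days 3 and 7 and close to or above it at days 14 and 28. These intervals cover counting error only, and the time points were not tested against each other. The IM value of the PBS library rested on 106 *Atp6v0d2* UMIs in 44 cells, of which 86 came from 4 cells that carried the *Mmp12*, *Gpnmb* and *Mfge8* markers described below, and in the other 40 cells the share was 20.2% (12.8% to 29.5%).

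The level of *Atp6v0d2* in IMs was set beside that of AM genes. At day 28 it was 82.9% of the AM level, when *Ear1*, *Plet1* and *Cidec* in the same IMs were at 2.52% to 5.54% of theirs and *Mrc1* and *Fabp4*, which many macrophages express, at 31.8% and 73.5%. At day 3 it was 2.99% of the AM level, with *Ear1*, *Plet1* and *Cidec* at 0.141% to 0.366% and *Mrc1* and *Fabp4* at 3.70% and 39.5%, so it stood above 3 of these 5 genes and below the others. In T cells *Atp6v0d2* was at 4.05%, 0.599%, 4.6%, 6.79% and 11.6% of the AM level, and the *Atp6v0d2* share there was 41.6%, 8.61%, 37.5%, 54.7% and 66.9%, so that it moved with the library also in a class without macrophage markers. At day 28 the IM level of 857 CPM compares with 119 CPM in T cells, and at day 3 the IM level of 23.9 CPM compares with 4.78 CPM. Cells with markers of both AMs and IMs, which were left out of both classes, had shares of 55.5%, 70.9%, 79.0% and 81.7% at days 3 to 28 (20, 145, 441 and 454 cells), and Scrublet scored 10, 73, 67 and 149 of them as doublets.

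**Figure D3:**
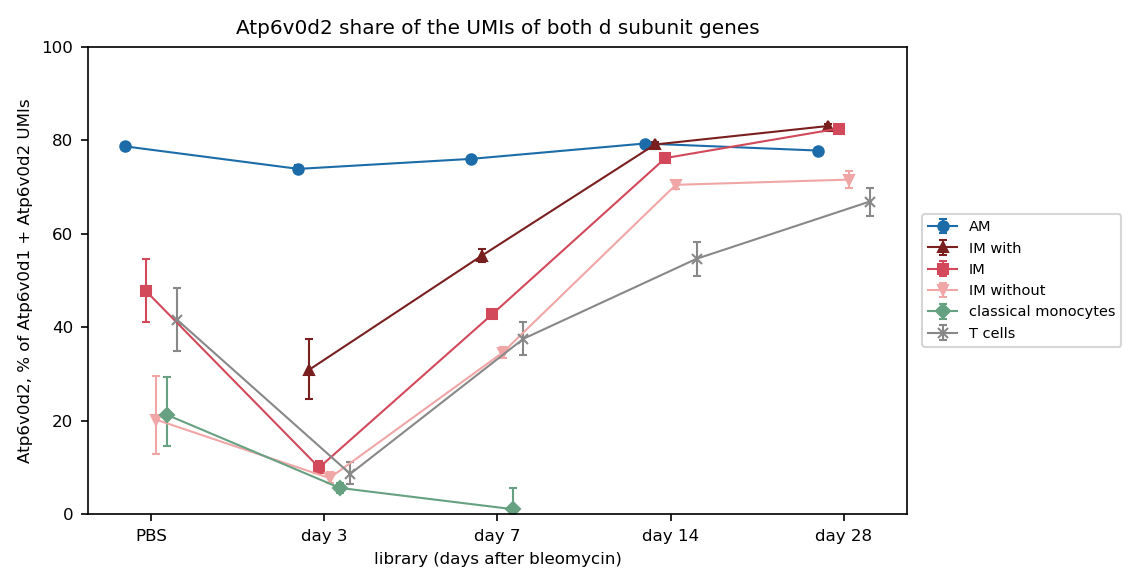
Share of *Atp6v0d2* among the UMIs of *Atp6v0d1* and *Atp6v0d2* in each library (points) with exact 95% binomial intervals (bars), where "with" and "without" mean IMs with and without *Mmp12*, *Gpnmb* and *Mfge8*, and classical monocytes and T cells are shown for comparison. AMs stay between 73.9% and 79.3%, whereas IMs run from 9.95% at day 3 to 82.5% at day 28.

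Between AMs and IMs the *Atp6v0d2* difference, 1.99 ± 0.71 on the log2 scale, did not pass the threshold (adjusted p = 0.063), although AMs were higher in 5 of 5 libraries. Within libraries the ratio of AMs to IMs was 5.49, 33.4, 5.92, 1.74 and 1.21.

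Classical monocytes held less of the module than IMs. In the 3 libraries with at least 20 cells of both (PBS, day 3 and day 7), 8 members were higher in IMs (3.07% of all genes tested were higher and 4.02% lower) and none was lower by edgeR, with 1 lower at an unadjusted p under 0.05 and 1 called lower by DESeq2. *Atp6v0d2* was at 30.5, 10.4 and 1.54 CPM in the monocytes and 172, 23.9 and 141 CPM in IMs, which was a log2 difference of 2.31 ± 0.56 (adjusted p = 0.046). *Gaa*, which degrades glycogen, was at 9.04, 33.8 and 10.8 CPM in monocytes and 45.5, 73.7 and 52.0 CPM in IMs (1.52 ± 0.29, adjusted p = 0.021), and *Tpp1* was at 63.3, 88.8 and 84.8 CPM in monocytes and 201, 205 and 244 CPM in IMs (1.40 ± 0.20, adjusted p = 0.0074). For *Gaa* and *Tpp1* the groups did not overlap, whereas for *Atp6v0d2* they did. *Glb1*, *Hexa*, *Grn*, *Atp6v1c1* and *Npc1* were the others, with differences of 0.92 to 1.31. None of the 8 calls was kept without the day 3 library and 2 were kept without the day 7 library. *Mitf* (0.76 ± 0.25), *Tfeb* (0.14 ± 0.27) and *Tfe3* (0.13 ± 0.19) did not pass the threshold.

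*Mmp12*, *Gpnmb* and *Mfge8* mark macrophages of injured and fibrotic lung, and cells with at least 2 of these markers were compared with the other cells of their class. Such AMs numbered 158, 51, 181, 328 and 1388 cells and such IMs 4, 36, 441, 889 and 1873 cells. In AMs 5 members were higher in cells with the markers (2.34% of all genes tested were higher and 0.501% lower), namely *Psap*, *Lipa*, *Tpp1*, *Atp6v1a* and *Atp6v1c1*. In IMs, over the 4 libraries after bleomycin, 5 members were higher (1.87% of all genes were higher and 1.74% lower), namely *Atp6v0d2*, *Lipa*, *Psap*, *Atp6v1a* and *Atp6v1c1*. The comparisons had 4 members in common, and no member was called lower in either by edgeR or DESeq2, with 1 in AMs and 0 in IMs lower at an unadjusted p under 0.05.

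*Psap*, the precursor of the saposins that activate sphingolipid hydrolases, was at 4857, 6183, 5692, 5836 and 8421 CPM in AMs with the markers and 3407, 3476, 4697, 5247 and 6759 CPM in AMs without (log2 difference 0.46 ± 0.09, adjusted p = 0.026). The marked AMs were higher in each library, while the ranges over libraries overlapped. *Lipa* was at 598, 625, 620, 856 and 708 CPM against 458, 382, 486, 751 and 531 CPM (0.45 ± 0.08, adjusted p = 0.010). *Tpp1*, a peptidase, was at 332, 267, 300, 326 and 381 CPM against 228, 173, 269, 304 and 329 CPM (0.36 ± 0.08, adjusted p = 0.047). Each of these genes was higher with the markers in 5 of 5 libraries. *Atp6v0d2* (0.24 ± 0.07, adjusted p = 0.088) did not pass the threshold in AMs.

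*Atp6v0d2* was at 105, 255, 624 and 894 CPM in IMs with the markers and 17.9, 95.9, 417 and 440 CPM in IMs without, at days 3, 7, 14 and 28. Marked cells were higher at each time, by a log2 difference of 1.30 ± 0.21 (adjusted p = 0.013). The *Atp6v0d2* share was 30.8%, 55.3%, 79.1% and 83.1% with the markers and 7.70%, 34.6%, 70.5% and 71.6% without them, so it was higher at the later days in both kinds of IM. In IMs without the markers *Atp6v0d2* was at 2.24%, 11.5%, 44.4% and 42.6% of the AM level at these days, and the highest of *Ear1*, *Plet1* and *Cidec* at 0.349%, 2.40%, 9.63% and 11.1%. These 3 AM genes were thus also higher at the later days, at a lower share than *Atp6v0d2*. *Mrc1* (3.54%, 29.8%, 47.0% and 47.5%) and *Fabp4* (39.6%, 35.6%, 54.4% and 90.8%) stood above *Atp6v0d2* at each of these days. The part of the AM genes in the result was not tested. *Lipa* was at 390, 350, 690 and 731 CPM with the markers and 233, 214, 607 and 460 CPM without (0.61 ± 0.10, adjusted p = 0.014), and *Psap* at 7134, 6793, 6126 and 7562 CPM against 5679, 4928, 4906 and 4943 CPM (0.46 ± 0.09, adjusted p = 0.031). The ranges stayed apart for *Psap* and overlapped for *Lipa*. *Tfeb*, *Tfe3* and *Mitf* did not pass the threshold in AMs or IMs, with differences between -0.08 and 0.22.

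These calls depended on how the markers were used. *Gpnmb* is itself a known target of MITF and TFE3. The gate was therefore reduced to *Mmp12* and *Mfge8*, and cells with both were compared with cells with neither. In IMs (3 libraries) no member was then called by edgeR, and 6 had an unadjusted p under 0.05. Of all genes, only 0.455% were higher and 0.49% lower in that fit. In AMs 8 members were higher and 1 lower (2 libraries, beside 5.02% and 3.89% of all genes). Marked cells were also deeper, with median UMIs of 20969 against 13554 in IMs and 21146 against 16301 in AMs at day 7. The markers were also counted after thinning each cell to 5000 UMIs, with cells below that depth left out. Then 16 members were higher in IMs (3 libraries, 5.42% of all genes) and 7 in AMs (4 libraries, 3.74%). This fit thus differed from the main one in its libraries and cells as well. In AMs no call was kept without the day 28 library, 1 without PBS, 2 without day 3 and 2 without day 7. In IMs 3 were kept without day 7 and 2 without day 14, and *Atp6v0d2* and *Lipa* were called in every fit that left out 1 library.

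Over time in AMs, relative to the PBS library, few members stood past 1.5-fold, and most of these did so at days 14 and 28. Of the 31 members at a mean of 10 CPM or more, 2, 1, 5 and 7 were past 1.5-fold higher at days 3, 7, 14 and 28, against 7.35%, 5.09%, 7.78% and 8.09% of all genes. Past 1.5-fold lower were 1, 0, 1 and 0 members, against 12.3%, 8.01%, 9.54% and 10.8% of all genes. The median log2 ratio of the members was -0.09, 0.10, 0.07 and 0.27, beside -0.13, -0.09, -0.05 and -0.03 for all genes.

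The genes past the limit in AMs were mainly luminal proteins and hydrolases. *Gm2a* was at 172, 227, 370, 380 and 481 CPM, which at day 28 was 2.80-fold the PBS level (95% interval 2.74 to 2.85, counting error only). *Psap* was at 3471, 3831, 4856, 5440 and 7878 CPM, 2.27-fold at day 28, and in AMs without the markers it stood at 3407 CPM in PBS and 6759 CPM at day 28. Both had their lowest value in the PBS library and their highest at day 28. *Grn*, at 642, 1085, 921, 963 and 1136 CPM, was past the limit at days 3 and 28 (1.69-fold and 1.77-fold). *Npc2* was past it at day 3 alone (1.80-fold), *Lipa* at day 14 (464 CPM in PBS, 786 CPM at day 14, 1.69-fold), and *Mitf* at day 14 (43.2, 54.6, 55.7, 75.9 and 45.3 CPM, 1.76-fold). The lower ones were *Npc1* at day 3 (167 to 109 CPM, 0.651-fold) and *Atp6v1c1*, the C subunit of V1, at day 14 (234 to 153 CPM, 0.654-fold). *Tfeb* (51.6, 35.7, 43.0, 42.3 and 49.2 CPM) and *Tfe3* (39.6 to 51.0 CPM) stayed within 1.5-fold.

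IMs held more members past the limit, against a baseline of 44 PBS cells. Of 31 members, 11, 5, 7 and 14 were past 1.5-fold higher at days 3, 7, 14 and 28, beside 21%, 10.6%, 11.5% and 13.3% of all genes, and 4, 1, 1 and 1 were past it lower, beside 19.2%, 17.7%, 21.2% and 25.7%. *Lipa*, *Mitf* and *Npc1* were past the limit at each of the 4 days, although the intervals of *Mitf* included 1 at day 3 (1.56-fold, 0.974 to 2.66) and day 7 (1.51-fold, 0.949 to 2.55). The median log2 ratio was 0.29, 0.09, 0.36 and 0.50 for the members and 0.03, -0.09, -0.12 and -0.18 for all genes.

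The members of IMs followed different courses. An early group was highest at day 3, with *Grn* at 882, 2244, 1389, 1018 and 1028 CPM (2.54-fold at day 3, 95% interval 2.34 to 2.78) and *Npc2* at 1016 CPM in PBS and 2408 CPM at day 3 (2.37-fold). *Mcoln1*, the lysosomal calcium channel, was 2.37-fold at day 3 with a wide interval of 1.19 to 5.55. A late group was highest at day 14 or 28, with *Lipa* at 156, 244, 253, 657 and 709 CPM (4.55-fold at day 28, 3.73 to 5.62), *Mitf* at 29.2, 45.5, 44.0, 83.3 and 73.0 CPM (2.85-fold at day 14, 1.80 to 4.81) and *Atp6v0d2*, 0.139-fold at day 3 and 4.98-fold at day 28. The PBS level of *Atp6v0d2* came mostly from 4 marked cells. Set against the other 40 cells (39.5 CPM), the level of all IMs was 0.603-fold at day 3 and 21.7-fold at day 28. That of IMs without the markers, the like comparison, was 0.453-fold and 11.1-fold. *Gm2a* was at 446, 229, 422, 519 and 679 CPM and *Glb1* at its lowest at day 3, 0.513-fold and 0.478-fold the PBS level. *Tfe3* ran the other way, at 84.4, 61.6, 49.3, 52.7 and 46.5 CPM, 0.551-fold at day 28, while *Tfeb* was at 26.0, 38.2, 33.6, 37.5 and 34.8 CPM.

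**Figure D4:**
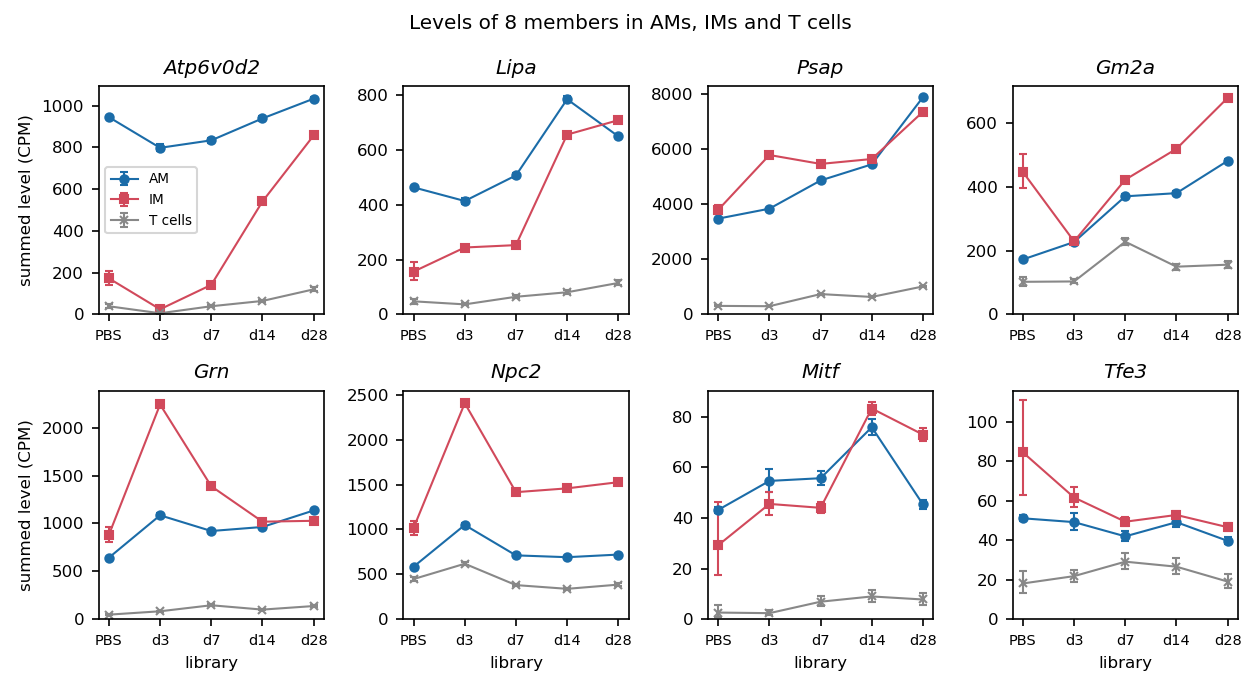
Summed level (CPM, linear axis from 0) of 8 members in AMs, IMs and T cells in each library, with exact 95% Poisson intervals that cover counting error only. *Grn* and *Npc2* peak at day 3 in IMs, *Lipa* and *Atp6v0d2* are highest there at day 28, and *Psap* and *Gm2a* in AMs go from their lowest in PBS to their highest at day 28.

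Classical monocytes reached 20 cells in 3 libraries (88, 708 and 75 cells in PBS, day 3 and day 7). At day 3, 10 of 31 members were past 1.5-fold higher and 2 lower, beside 20% and 17.8% of all genes, and at day 7, 6 of 29 were higher and 7 lower, beside 22.4% and 16.6%. *Grn* was at 350, 1303 and 555 CPM, 3.72-fold at day 3 (3.32 to 4.18). *Gaa* (3.74-fold, 1.88 to 8.73) and *Mcoln1* (3.83-fold, 1.47 to 14.2) were higher at day 3 with wide intervals, *Npc1* was at 28.2, 74.4 and 91.0 CPM, and *Man2b1* was at 303, 184 and 140 CPM. *Atp6v0d2* in monocytes lay at 3.23%, 1.31% and 0.185% of the AM level, beside 1.54% to 3.22%, 0.199% to 0.384% and 0% to 1.35% for *Ear1*, *Plet1* and *Cidec*, so in the PBS and day 7 libraries it was at the level of those genes.

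In neutrophils the members summed to 6716 CPM on average (5176 to 8710 CPM). Against classical monocytes in 3 libraries, 3 of 31 members were higher, beside 11.7% of all genes higher and 8.19% lower, and none was lower by edgeR, with 3 lower at an unadjusted p under 0.05 and 1 called by DESeq2. *Tfeb*, at 66.1, 55.0 and 25.4 CPM in neutrophils and 38.4, 33.7 and 17 CPM in monocytes (PBS, day 3, day 7), differed by 1.24 ± 0.33 (adjusted p = 0.027). The fitted differences exceed those of the CPM values because TMM scaling, which sets most genes near 0, added a median of 0.49 on the log2 scale over the members in this comparison. *Ppt1*, at 301, 192 and 143 CPM against 164, 120 and 89.4 CPM, differed by 1.25 ± 0.36 and *Atp6v0d2* by 2.46 ± 0.63, with *Atp6v0d2* at 91.5, 14.3 and 125 CPM in neutrophils. The *Atp6v0d2* level of neutrophils was 9.69%, 1.79% and 15% of that of AMs in these libraries, when *Ear1*, *Plet1* and *Cidec* were at 4.33% to 6.16%, 0.231% to 1.10% and 15.2% to 20.1% of theirs. *Mrc1* was at 6.55%, 0.990% and 14.3% and *Fabp4* at 12.4%, 2.70% and 28.1%. The *Atp6v0d2* call was lost with predicted doublets removed, as was that of *Ppt1*. The calls of *Ppt1* and *Tfeb* were lost without the PBS library, without the day 3 library or with the UMI floor of day 7 in every library. The part of free RNA in this difference was not tested.

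In neutrophils 14 of 30 members were past 1.5-fold higher at day 28, beside 28.2% of all genes higher and none lower beside 8.69%, and 10 of these 14 were past the same limit in T cells of that library. *Psap* was at 944 CPM in PBS and 2720 CPM at day 28 in neutrophils (2.88-fold), and at 304 and 1009 CPM in T cells. *Grn* was 3.00-fold and *Gaa* 3.00-fold the PBS level. At day 3, 2 of 28 members were higher (11.7% of all genes), *Npc2* at 166 and 542 CPM (3.27-fold) and *Grn* at 115 and 365 CPM (3.17-fold), and 3 were lower (11.7%). At day 7, when only 85 neutrophils with a median of 7532 UMIs were present against a median of 2652 in PBS, 12 of 29 were higher and 5 lower, beside 43.7% and 20% of all genes. At day 14, 5 of 28 were higher and 1 lower, beside 15.7% and 9.54%.

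Other genes of the lysosome, listed by function (13 proton pump subunits, 22 hydrolases and 20 membrane and sorting genes), were tested in the same fits. Of the 54 tested, 12 were higher in AMs and 14 in IMs, which was 22.2% and 25.9% beside the 19.1% and 18.8% of all genes. *Sort1*, the sorting receptor sortilin, was at 311, 188, 292, 322 and 367 CPM in AMs and 21.1, 9.04, 39.7, 101 and 113 CPM in IMs (log2 difference 2.62 ± 0.46, adjusted p = 0.0045), and *Laptm4b* differed by 1.86 ± 0.22. *Igf2r*, the receptor that carries tagged hydrolases to the lysosome, was at 0.696, 3.56, 3.93, 3.18 and 11.5 CPM in AMs and 19.5, 45.9, 39.2, 33.4 and 64.5 CPM in IMs (-3.48 ± 0.26, adjusted p = 0.00016), and *Sgsh*, the heparan sulphamidase, differed by -3.33 ± 0.32. *Sort1* and *Igf2r* thus lay on opposite sides between these macrophages, and *M6pr*, another gene of these lists, was called higher in AMs.

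With the markers, 9 of the 54 other genes were higher in AMs and 7 in IMs (16.7% and 13%, beside 2.34% and 1.87% of all genes), 6 of them in both, and none was called lower by edgeR. *Igf2r* was at 1.82, 10.5, 11.3, 4.33 and 15.5 CPM in AMs with the markers and 0.643, 2.5, 2.52, 2.62 and 3.31 CPM in AMs without (1.83 ± 0.24, adjusted p = 0.0028). *Rragd*, a GTPase of the lysosomal surface that signals nutrients, differed by 1.04 ± 0.20 in AMs and 1.04 ± 0.17 in IMs. None of the 54 had an unadjusted p under 0.05 in the lower direction in either comparison. Between IMs and classical monocytes 9 of 52 were higher (17.3%, beside 3.07% of all genes), led by *Cd63*, a tetraspanin of late endosomes, at 1091, 958 and 1230 CPM in IMs and 33.9, 339 and 123 CPM in monocytes (3.13 ± 0.60, adjusted p = 0.021) and *Naglu* (1.83 ± 0.25).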

How the data were processed

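Libraries were made by the authors from lung digests with the 10x 3′ kit v3.1 and processed with Cell Ranger 6.0.0 against mm10 (the matrix headers name version 3.1.0). The deposited values are UMI counts per gene and barcode, unnormalized, from barcodes above a UMI floor that was higher at day 7, and every column was used. The doublet step of the authors was not repeated.

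Cells were limited to 300 to 8000 genes and 800 to 60000 UMIs, with a mitochondrial share below 15%. A marker counted at 2 UMIs. Cells needed 2 markers of a class (3 of 4 for classical monocytes, neutrophils and epithelial cells) and of no other. Predicted doublets (Scrublet in scanpy 1.11.5, 0.8% per 1000 barcodes) were removed only as an alternative. Of 11224 AMs and 6724 IMs, 2539 and 812 had the fewest markers allowed.

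UMIs were summed per class and library with at least 20 cells. Classes were compared with edgeR 4.0.16 in R 4.3.3 (TMM, filterByExpr, quasi-likelihood test, library as a block, Benjamini–Hochberg over all genes), with DESeq2 1.42.0 as an alternative. Only the fit of AMs against IMs was run on simulated counts. Their differences were equal in all libraries, so differences that vary with the day were not covered. A p-value here measures the spread between libraries of different days. SE is the log2 difference divided by the root of F. Levels carry exact 95% Poisson intervals, shares and ratios exact binomial ones. UMIs collapse PCR copies, and intervals cover counting error only.

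The per-cell Wilcoxon test of the study was not used, since cells are not replicates. The rule named the 3 largest differences in each direction, *Atp6v0d1*, *Atp6v0d2*, *Tfeb*, *Tfe3* and *Mitf*, and 2 genes of the other lists; most have their value in every library printed, and the others a range or a difference. TMM moved the differences by a median of -0.14 to 0.49 (log2) from those of CPM. Other members were named for their highest class after their values were seen. The members and lists were chosen with earlier results of these data known.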

Additional observations from a re-analysis of the deposited data

Results flagged for a closer look

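*Cln3*, a membrane protein of the lysosome, went opposite ways between AMs and IMs at different times. The ratio of its AM level to its IM level was 0.462 at day 3 (52.6 against 114 CPM) and 1.62 at day 28 (75.5 against 46.6 CPM). It was 1.09, 0.974 and 1.40 in the PBS, day 7 and day 14 libraries. With 1 library per time point the difference between the days was not tested.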

How the results depend on the processing

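No paired analysis was possible because each time point holds 1 library and all replicate numbers are 1, which concerns the time points, since classes were compared within libraries. Single members kept their direction under every alternative wherever either value was called; 2415 of their values stayed on the same side of the threshold, 121 lost and 103 gained a call. Members higher in AMs than T cells (31), and in AMs than cDC2s (26 to 28), stayed within 1.5 times under each alternative. The cause was not tested for any value below.

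With each library left out in turn, the members higher in IMs than AMs (10) numbered 5 to 8, those higher with the *Mmp12*, *Gpnmb* and *Mfge8* markers 0 to 5 in AMs and 2 to 6 in IMs, those higher in IMs than monocytes 0 to 11 and lower 0 to 1, and those higher in neutrophils than monocytes 1 to 5 and lower 0 to 7. In these fits 12.7% to 19.8% of all genes were higher in IMs than AMs. With the markers 0.606% to 2.52% were higher in AMs and 0.823% to 2% in IMs. In IMs over monocytes 0.752% to 5.54% were higher and 0.68% to 7.46% lower, and in neutrophils 5.09% to 23.9% and 1.73% to 22.9%. Without the library block the counts of members were 5 for IMs over AMs (11.7% of all genes) and 0 for the other 4 comparisons. Then 0% of all genes were called with the markers in AMs or IMs, 0.0194% were higher in IMs over monocytes and 3.85% in neutrophils. DESeq2 called 8 in AMs (2.92% of all genes) and 10 in IMs (3.03%) with the markers. Against monocytes it called 1 lower in IMs (4.55%) and 1 lower in neutrophils (6.41%). Without the filter on low counts 8 and 14 were higher with the markers (2.97% and 3.57% of all genes) and 1 was lower in neutrophils (5.97%). The gate with 1 more marker gave 10 in AMs (2 libraries, 4.99% of all genes) and 13 in IMs (3 libraries, 4.37%) with the markers. It gave 2 in IMs over monocytes (2.38%) and 6 lower in neutrophils (20.6%). The gate without *Gpnmb* gave 8 higher and 1 lower in AMs (5.02% and 3.89% of all genes) and 0 in IMs (0.455% and 0.49%). With predicted doublets removed 1 was higher in neutrophils (8.97% of all genes). There were 2 alternatives chosen after seeing the data. The markers counted at 5000 UMIs gave 16 in IMs (3 libraries, 5.42% of all genes). AMs and IMs without the markers gave 6 higher in IMs (17.8%) and 9 higher in AMs (18.2%), against 10 and 6 with all cells.

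Over time, TMM factors shifted log2 ratios by -0.33 to 0.19. They gave 0 lower at days 3 and 14 and 2 higher at day 7 in AMs, 13 higher and 0 lower at day 14 in IMs, and 9 lower at day 7, 3 higher at day 14 and 1 lower at day 28 in neutrophils. The mean of CPM per cell gave 0 lower at day 3 in AMs, 0 lower at day 14 in IMs, and 5 lower at day 3 and 9 higher at day 28 in neutrophils. A floor of 4624 UMIs gave 2 lower at day 14 in IMs, and 9 higher at day 3 and 3 lower at days 7 and 14 in neutrophils. Doublet removal gave 2 higher at day 7 and 3 lower at day 28 in IMs, and the stricter gate 0 lower at day 14 in AMs. In classical monocytes the stricter gate left too few cells at 1 time.

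The *Atp6v0d2* share with doublets removed was 41.7% in IMs and 21.2% in T cells at day 7, 61.5% in T cells and 56.5% in neutrophils at day 28, and 4.52% in neutrophils at day 3. Under the stricter gate it was 75.1%, 76.6% and 77.2% in AMs at days 3, 7 and 28, 35.9% and 39.7% in IMs in PBS and at day 7, and 50.8% in T cells at day 14.

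Depth limits the 44 IMs of PBS, the 75 monocytes of day 7 and members under 10 CPM.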
